A study of Mus musculus with 42 samples.

Results

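The granins Chga, Chgb, Scg2, Scg3, Scg5 and Vgf are 6 of the 37907 genes measured, chosen by name and not by their values. They were followed in 4 hypothalamic nuclei of male wild-type C57/BL6 mice aged 17 to 19 weeks, which had either free access to food (fed) or none for 24 hours (fasted). The nuclei were the arcuate nucleus (ARC, 5 fed and 5 fasted libraries), the dorsomedial nucleus (DMH, 5 and 4), the paraventricular nucleus (PVN, 6 and 5) and the ventromedial hypothalamus (VMH, 6 and 6), each cut out by laser-capture microdissection. RNA was amplified before sequencing, and values are RPKM, in which reads are divided by gene length and library size. Levels of different genes are compared on this scale, and whether amplification acted alike on them was not tested. All 4 nuclei were taken from the same brains, but the labels do not tie libraries to mice. Tests between nuclei, averages over nuclei and the test of whether fasting effects varied between nuclei treat libraries as independent.

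Granins are acidic secretory proteins that are packed with peptide hormones into the dense-core granules of neurons and endocrine cells. They aggregate at the low pH and high calcium of the trans-Golgi network, help to form the granule, and are cut by prohormone convertases into peptides that are released with its cargo. The hypothalamic nuclei sampled here hold many neurons that signal with such peptides, among them those that control feeding, growth, water balance and the pituitary.

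The granin genes had no exon sequence in common with another annotated gene, and each had reads in all 42 libraries. The estimated number of reads behind a value ran from 25.8 for Vgf, in fasted VMH library 1, to 19264 for Scg2, in fasted DMH library 4. Depth was estimated at 1.33 to 13.2 M reads per library, with a mean of 4.57 M. It is the library size implied by a count added to the values and by exon lengths, not the number of reads sequenced. The study's methods give a higher average of sequenced reads per sample, over a larger set of samples. The 15 nucleus markers in the table were each highest in the nucleus that they mark. The libraries fell into 3 batches, of 10, 16 and 16, read from values that libraries share. The batch means had been removed from the deposited values, and batch 1 held no fasted DMH library.

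The level of every granin differed between nuclei in fed mice, and 5 of the 6 differed in fasted mice. By limma's test across the 4 nuclei, with Benjamini-Hochberg adjustment over 33579 genes and a threshold of an adjusted p under 0.1, 6 of 6 passed in fed mice, where 12.4% of all genes did. In fasted mice 5 of 6 passed, against 11.9% of all genes, and the exception was Scg5 (adjusted p = 0.39). Here and below, shares of all genes are over these 33579, of which 15624 were classed as genes with reads. They are therefore not shares of expressed genes. Chga stood highest in the VMH, whereas Chgb, Scg2, Scg3 and Vgf were lowest there. In bulk tissue, fewer cells that express a gene and less RNA in each of them cannot be told apart.

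**Figure D1:**
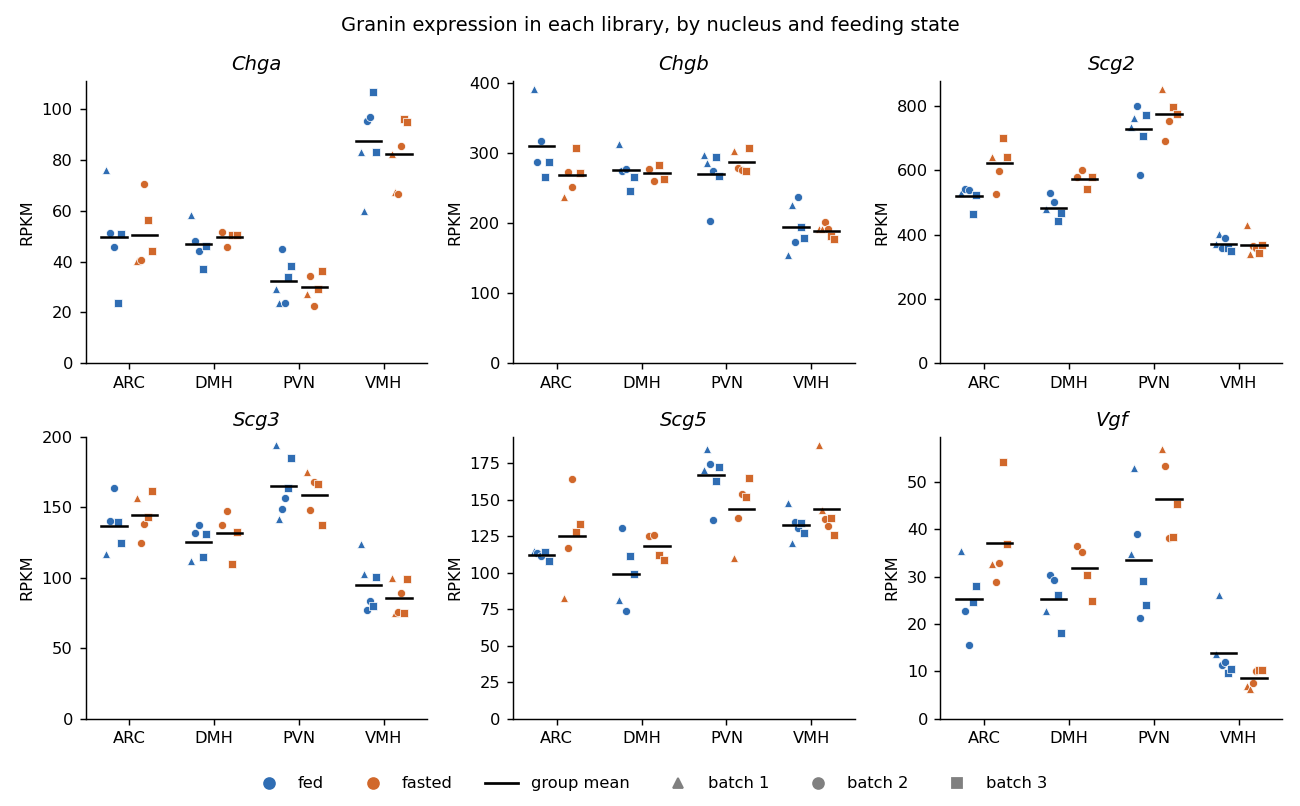
Expression of the 6 granins in 42 libraries (y axis, RPKM) by nucleus (x axis), with fed libraries in blue, fasted in orange, a bar at each group mean and a marker shape for each inferred batch. Chga is highest in the VMH, Chgb, Scg2, Scg3 and Vgf are lowest there, and fed and fasted libraries of a nucleus mostly overlap.

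Chga (chromosome 12, 102554969 to 102565028 on GRCm38) encodes chromogranin A, which drives granule formation and is the precursor of vasostatin, pancreastatin and catestatin. In fed VMH its lowest, median and highest RPKM were 60.1, 89.3 and 107. In fed PVN these were 23.6, 31.6 and 44.8, so that each VMH library lay above each PVN library. The fed ARC libraries held 76.2, 51.4, 45.9, 23.6 and 50.7 RPKM, and the fed DMH libraries 58.4, 48.2, 44.3, 37.2 and 46.1. These stood between the PVN and the VMH, and in the ARC they overlapped both. The mean was 87.6 ± 16.2 RPKM (SD, n = 6) in the VMH and 32.3 ± 8.35 RPKM (n = 6) in the PVN of fed mice, and the log2(RPKM + 1) difference was 1.43 (SE 0.19, limma adjusted p = 8.8e-07).

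The order of Chga over the nuclei, VMH above ARC, DMH and PVN, was the same after a fast. In fasted VMH its lowest, median and highest RPKM were 66.8, 84.0 and 96.2. The fasted PVN libraries held 27.3, 34.1, 22.3, 29.2 and 36.3 RPKM. The fasted VMH and PVN did not overlap either, and the difference was 1.44 on the log2(RPKM + 1) scale (SE 0.20, adjusted p = 2.2e-06). The fasted ARC libraries held 40.3, 40.7, 70.7, 56.5 and 44.1 RPKM and the fasted DMH libraries 51.8, 45.9, 50.6 and 50.6. Against the VMH, Chga differed by -0.71 in the fasted ARC (adjusted p = 0.020) and the VMH was above the fasted DMH by 0.70 (adjusted p = 0.068). The last of these calls was lost without any of fasted DMH libraries 2, 3 and 4 and fasted VMH libraries 4, 5 and 6 (adjusted p from 0.102 to 0.155).

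Chgb (chromosome 2, 132781278 to 132795079) encodes chromogranin B, a second granule-forming granin. It did not share the Chga pattern, being lowest in the VMH. In fed VMH its lowest, median and highest RPKM were 154, 186 and 236, and in fasted VMH 176, 191 and 202. The fed ARC libraries held 390.3, 286, 317, 266 and 286 RPKM, and the fed DMH libraries 313, 274, 276, 246 and 265. Each of these was above each fed VMH library. In fed PVN the lowest, median and highest were 202, 279 and 297 RPKM. Only the lowest PVN library, number 3, reached into the VMH range.

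The VMH differed in Chgb from each other nucleus, and the other 3 did not pass the test among themselves. In fed mice the ARC was above the VMH by 0.68 on the log2(RPKM + 1) scale (SE 0.096, adjusted p = 4.1e-06), and the VMH was below the DMH by 0.52 and below the PVN by 0.48. The fasted ARC libraries held 236, 272, 251, 307 and 272 RPKM, the DMH libraries 276, 259.6, 283 and 262, and the PVN libraries 302, 278, 275, 274 and 307. All 14 of these were above the highest fasted VMH library.

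Scg2 (chromosome 1, 79434669 to 79440120) encodes secretogranin II, the precursor of secretoneurin, and was the most abundant granin in every group. Its levels separated the VMH from the other nuclei with no overlap. In fed VMH its lowest, median and highest RPKM were 349, 365 and 401, and in fed PVN 586, 751 and 801. The fed ARC libraries held 531, 543, 538, 464 and 522 RPKM and the fed DMH libraries 481, 530, 502, 443 and 465.9. The VMH mean was 371 ± 20.3 RPKM (SD, n = 6) and the PVN mean 728 ± 76.6 RPKM (n = 6), a log2(RPKM + 1) difference of -0.96 for VMH minus PVN (SE 0.068, adjusted p = 3.6e-13).

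In fasted VMH the lowest, median and highest Scg2 values were 340, 360 and 431 RPKM. The fasted PVN libraries held 853, 693, 755, 799 and 776 RPKM, each above every fasted ARC or DMH library except that fasted ARC library 4, at 702, passed the lowest. VMH minus PVN was -1.08 (SE 0.071, adjusted p = 9.7e-14). Scg2 passed the test in 10 of 12 pairs of nuclei over both states, the pairs that did not pass being ARC against DMH.

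Scg3 (chromosome 9, 75643189 to 75684056) encodes secretogranin III, which binds chromogranin A and the cholesterol-rich granule membrane. Its order over the nuclei was that of Scg2. In fed PVN its lowest, median and highest RPKM were 141, 160.1 and 194, and in fed VMH 77.3, 92.0 and 124. The fed ARC libraries held 117, 139.9, 163, 139 and 125 RPKM and the fed DMH libraries 112, 131, 137, 115 and 131. The highest fed VMH library, number 1, reached into the ARC and DMH ranges but not into that of the PVN. VMH minus PVN was -0.81 in fed (SE 0.106, adjusted p = 7.4e-07) and -0.89 in fasted mice (SE 0.111, adjusted p = 3.1e-07).

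Fasted Scg3 had the same layout, with the VMH apart from the rest. In fasted VMH its lowest, median and highest RPKM were 75.2, 82.2 and 99.7. The fasted PVN libraries held 175, 148, 168, 166 and 137 RPKM, the ARC libraries 157, 125, 138, 143 and 162, and the DMH libraries 137, 148, 109.9 and 132. No fasted VMH library reached the lowest of these. In fed mice the PVN also passed against the DMH (DMH minus PVN -0.39, adjusted p = 0.051), a call that was lost without any of fed DMH libraries 1 and 4 and fed PVN libraries 1 and 6 (adjusted p from 0.127 to 0.152).

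Scg5 (chromosome 2, 113776362 to 113829121) encodes the neuroendocrine protein that keeps the convertase encoded by Pcsk2 from acting too early and helps it to mature. It was the only granin whose mean in fed VMH was neither the highest nor the lowest of the 4 nuclei. In fed PVN its lowest, median and highest RPKM were 136, 172 and 185, and in fed VMH 121, 133 and 148. The fed ARC libraries held 115, 114, 112, 114 and 108 RPKM, a narrow range, and the fed DMH libraries 81.4, 130.5, 73.5, 112 and 99.3. The PVN was thus above every ARC and DMH library in fed mice, by 0.56 over the ARC (ARC minus PVN -0.56, SE 0.129, adjusted p = 0.0061) and by 0.77 over the DMH (DMH minus PVN -0.77, SE 0.129, adjusted p = 0.00016).

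The fed VMH passed above the DMH in Scg5 (difference 0.44, adjusted p = 0.043). That call was lost without fed DMH library 1 or 3 (adjusted p = 0.163 and 0.183). In fasted mice Scg5 overlapped between the nuclei. The fasted PVN libraries held 109.9, 138, 154, 152 and 165 RPKM, the ARC libraries 82.8, 117, 164, 128 and 133, and the DMH libraries 125, 126, 112 and 109. In fasted VMH the lowest, median and highest were 126, 137 and 188, the VMH mean of 144 ± 22.2 RPKM (SD, n = 6) was close to the PVN mean of 144 ± 21.2 RPKM (n = 5), and VMH minus PVN was 0.003 with a 95% interval from -0.26 to 0.26.

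Vgf (chromosome 5, 137026392 to 137033351) encodes a nerve growth factor-inducible granin that is cut into several neuropeptides and is needed for normal body weight and energy balance in mice. Its mean was the lowest of the 6 in the ARC, DMH and VMH, whereas in the PVN that of Chga was lower. In fasted mice it differed more between nuclei than any other granin. In fed VMH its lowest, median and highest RPKM were 9.71, 11.6 and 26.1, and in fed PVN 21.2, 32.0 and 53.0. The fed ARC libraries held 35.5, 22.8, 15.5, 24.7 and 28.1 RPKM and the fed DMH libraries 22.7, 30.3, 29.4, 26.2 and 18.1. Fed VMH library 2, of batch 1, at 26.1 was the only VMH library within the PVN range.

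In fasted VMH Vgf had a lowest, median and highest RPKM of 6.33, 8.80 and 10.4. The fasted PVN libraries held 57.1, 53.3, 38.2, 38.3 and 45.4 RPKM, the ARC libraries 32.6, 28.8, 33.0, 54.4 and 36.9, and the DMH libraries 36.6, 35.3, 30.3 and 25.0. No fasted VMH library reached the lowest of these. The mean of the PVN was 2.42 times that of the VMH in fed mice and 5.41 times in fasted mice. VMH minus PVN was -1.23 (SE 0.213, adjusted p = 8e-05) and -2.31 (SE 0.223, adjusted p = 1.2e-09) on the log2(RPKM + 1) scale, which understates the ratio of low values.

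Of the 72 comparisons of a granin between a pair of nuclei within a state, 40 passed the test. Those with the VMH on one side made up 31 of these 40, out of 36. In fed mice 5 of 6 granins passed between ARC and VMH, where 7.9% of all genes did, 6 of 6 between VMH and DMH (5.24% of all genes) and 5 of 6 between VMH and PVN (9.84%). In fasted mice 5 of 6 passed in each, where 8.91%, 3.94% and 9.24% of all genes did. Between ARC and PVN 2 of 6 passed in fed mice (4.13% of all genes) and 2 of 6 in fasted mice (4.19%). Between DMH and PVN 3 of 6 passed in fed (3.42%) and 2 of 6 in fasted mice (3%). Between ARC and DMH 0 of 6 passed in either state, where 2.79% and 3.21% of all genes did, and 0 of 6 had an unadjusted limma p under 0.05.

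**Figure D2:**
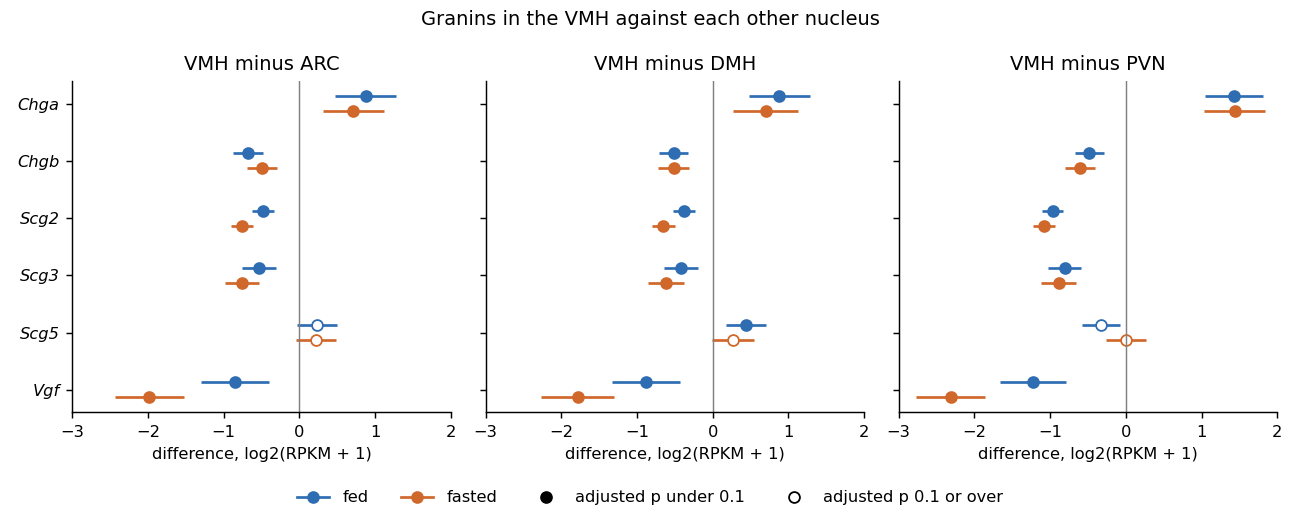
Difference of each granin between the VMH and the ARC, DMH or PVN (x axis, log2(RPKM + 1) of VMH minus the other nucleus) with 95% intervals, in fed (blue) and fasted (orange) mice, filled where the adjusted p is under 0.1. Chga lies to the right of 0 in all 3 panels, Chgb, Scg2, Scg3 and Vgf to the left, and Scg5 on either side, from -0.33 against the fed PVN to 0.44 against the fed DMH.

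Batch 1 held 4 of the 12 VMH libraries but 1 of the 9 DMH libraries, and removing batch means acts across nuclei. Within batches, the PVN minus VMH difference of Chga ran from -1.54 to -1.36 over 6 combinations of batch and state, that of Scg2 from 0.87 to 1.15 and that of Vgf from 1.14 to 2.93. For Chgb it ran from 0.22 to 0.69 and for Scg3 from 0.55 to 1.003. These 5 genes kept their direction in every batch and state. Scg5 did not, with values from -0.57 to 0.41. Its only negative value, in fasted mice of batch 1, compared 1 PVN library with 2 VMH libraries. These included fasted VMH library 1, which stood apart for Scg5, as described further below. The other Scg5 values ran from 0.11 to 0.41.

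Markers of other cells also differed between nuclei. The 12 listed neuron markers had a summed level of 1614 to 1795 RPKM in fed VMH libraries, 1542 to 1810 in fed PVN, 1355 to 1467 in fed DMH and 1244 to 1399 in fed ARC, and 6 of 12 passed higher in the VMH than in the PVN and 2 of 12 lower. The 10 oligodendrocyte markers summed to 269 to 422 RPKM in fed VMH, 114 to 159 in fed PVN, 150 to 233 in fed DMH and 109 to 153 in fed ARC, and 8 of 10 passed higher in the VMH than in the PVN. The 9 endothelial markers summed to 71.6 to 101 RPKM in fed PVN, 31.6 to 75.4 in fed VMH, 31.5 to 49.1 in fed DMH and 25.9 to 39.0 in fed ARC, and 5 of 9 passed lower in the VMH than in the PVN. Of all genes, 9.84% passed between fed VMH and PVN, in either direction. None of the markers in these 3 lists sat at the value of a gene without reads. With the mean neuron marker level as a covariate, 19 of the 72 comparisons between nuclei passed, against 40 without it. Over all genes, calls between VMH and PVN fell from 3305 to 1859 in fed mice and from 3104 to 2104 in fasted mice. The SE of the fed VMH minus PVN difference rose from 0.190 to 0.250 for Chga and from 0.068 to 0.089 for Scg2. The part of wider errors in the lost calls was not tested. Among the 19 granin comparisons that passed with the covariate, VMH minus PVN in fed mice was 1.32 for Chga and -0.42 for Chgb. It was -0.97 for Scg2, -0.74 for Scg3 and -1.53 for Vgf. The limma adjusted p of these 5 ran from 1.3e-09 to 0.036. These values do not cover the VMH against the ARC or DMH. The part of the oligodendrocyte and endothelial markers in the differences between nuclei was not tested.

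The granins were thus present in different proportions. Summed over the 6, the level was 893 ± 42.3 RPKM (SD, n = 6) in fed VMH, 1056 ± 60.7 (n = 5) in fed DMH, 1153 ± 86.0 (n = 5) in fed ARC and 1395 ± 101 (n = 6) in fed PVN. Scg2 made up 52.1 ± 2.74% of this sum in fed PVN and 41.5 ± 0.83% in fed VMH. Chga made up 2.31 ± 0.55% in fed PVN and 9.85 ± 1.96% in fed VMH. Scg5 made up 14.9 ± 1.34% in fed VMH, against 9.40 ± 2.08% to 11.95 ± 0.49% in the other 3 nuclei.

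**Figure D3:**
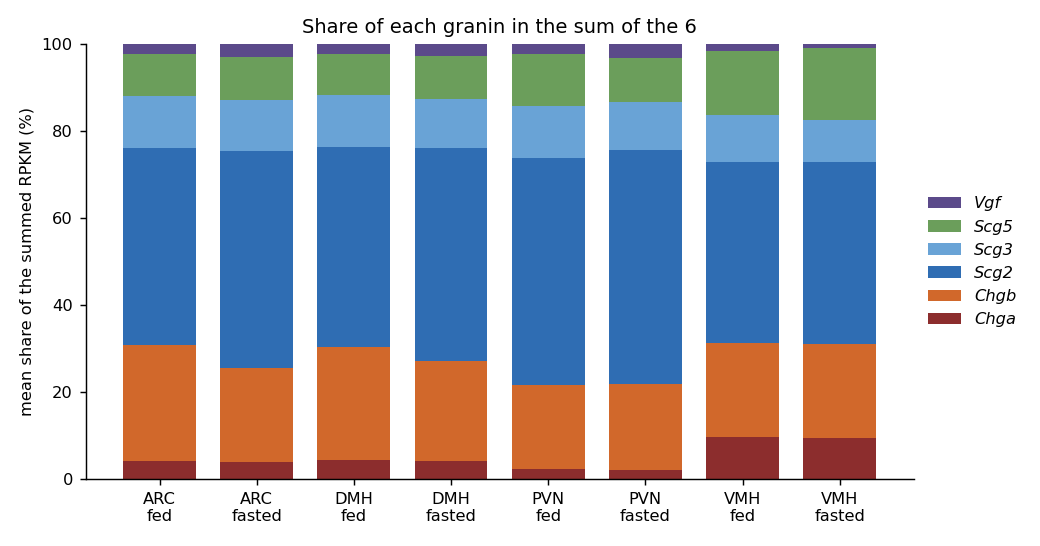
Mean share of each granin in the summed RPKM of the 6 (y axis, percent) for the 8 groups (x axis), each bar adding to the whole. Scg2 takes the largest part in each group and Chga is widest in the VMH, at 9.85% in fed and 9.41% in fasted mice.

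A ratio within a library does not depend on its scaling. The ratio of Chga to Scg2 was not among the planned tests. Chga over Scg2 was 0.238 ± 0.050 (SD, n = 6) in fed VMH and 0.0441 ± 0.0087 (n = 6) in fed PVN. The lowest VMH library was at 0.1497 and the highest PVN library at 0.0559, so the groups did not overlap (log2 difference 2.42, two-sided exact permutation p = 0.0022, the smallest possible with 6 against 6). In fasted mice the log2 difference was 2.55 (exact permutation p = 0.0043, the smallest possible with 6 against 5). In both states Chga and Scg2 each separated the VMH from the PVN libraries, in opposite directions. The p-values of their ratio were therefore fixed by those values and add no evidence. The fed ARC and DMH had ratios of 0.0943 ± 0.033 (n = 5) and 0.0968 ± 0.015 (n = 5) and did not differ beyond their spread (exact permutation p = 0.76). Over 12 such pairs of nuclei, the log2 ratio of ARC and DMH was the closest in both states.

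**Figure D4:**
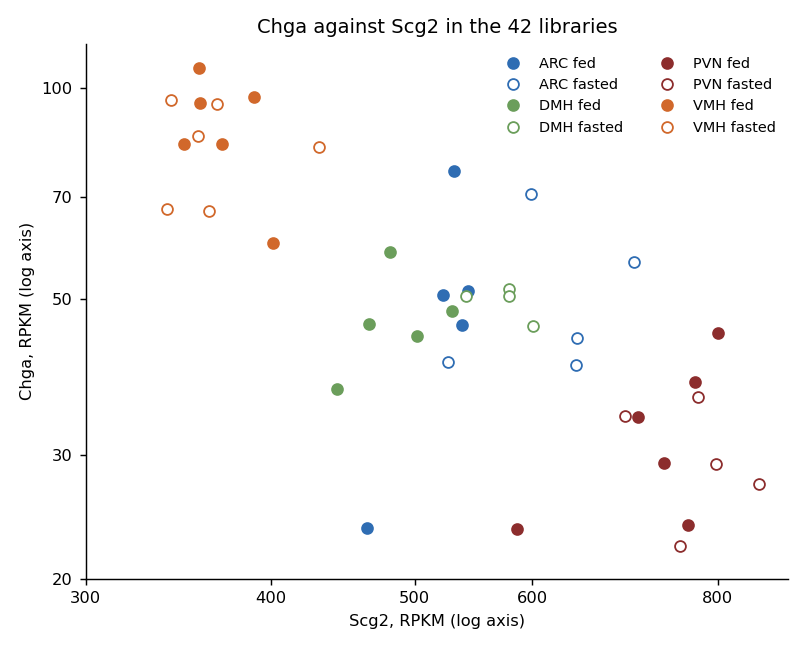
Chga against Scg2 in the 42 libraries (both axes RPKM, log scale), coloured by nucleus, filled for fed and open for fasted mice. VMH libraries lie at the upper left, PVN libraries at the lower right, and ARC and DMH libraries between them.

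Across the 42 libraries Scg2 correlated with Scg3 (Pearson r = 0.88) and with Vgf (r = 0.87), and Chga ran opposite to Scg3 (r = -0.79), Scg2 (r = -0.77), Vgf (r = -0.70) and Chgb (r = -0.61). The 42 points are not independent, since they share nuclei, mice and batches. About the group means, the same pairs had r of 0.38, 0.40, -0.23, 0.27, 0.04 and 0.12. The opposite course of Chga was therefore mostly one between groups, with Scg3 alone keeping a negative value about the group means. Scg5 had r between -0.23 and 0.22 with each of the other 5.

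Among 8433 other genes with a symbol and a mean of at least 10 RPKM, those most like each granin over the 42 libraries were as follows. For Scg2 they were Tent5a (r = 0.94), the secretory vesicle GTPase Rab3b (r = 0.91) and Ptprk (r = 0.91). For Scg3 they were Tmem176b (r = 0.90), Rab3b (r = 0.88) and Stk32a (r = 0.87), and for Vgf Nrsn2 (r = 0.88), Tmem176b (r = 0.87) and Cbarp (r = 0.87). Chgb was most like Rab3c (r = 0.87), the dopamine-synthesis gene Th (r = 0.87) and Fxyd6 (r = 0.85). For Chga they included Hs3st4 (r = 0.85) and Arf3 (r = 0.84). Scg5 had weaker matches, Myrip (r = 0.73), Srrm4 (r = 0.72) and Adam23 (r = 0.70). For the mean of the 6 after standardising each, they were Tmem176b, Tent5a, Tmem130, Ptprk and Hsp90b1 (r from 0.86 to 0.89).

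Granin promoters are known for the cAMP response element (CRE), an 8-base palindrome, TGACGTCA, bound by CREB family factors. RefSeq promoters on GRCm38.p6 were found for Chga, Chgb, Scg2, Scg3 and Scg5. They are shown as the 200 bases before the RefSeq start on the strand of the gene. Each CRE and each of its shorter cores, TGACG, on either strand, is in capitals.
Scg2, chr1:79440027-79440226, minus strand: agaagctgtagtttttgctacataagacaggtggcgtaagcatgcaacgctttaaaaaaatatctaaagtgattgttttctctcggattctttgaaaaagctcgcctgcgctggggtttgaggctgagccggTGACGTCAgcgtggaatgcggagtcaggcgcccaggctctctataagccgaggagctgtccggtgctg
Chgb, chr2:132781442-132781641, plus strand: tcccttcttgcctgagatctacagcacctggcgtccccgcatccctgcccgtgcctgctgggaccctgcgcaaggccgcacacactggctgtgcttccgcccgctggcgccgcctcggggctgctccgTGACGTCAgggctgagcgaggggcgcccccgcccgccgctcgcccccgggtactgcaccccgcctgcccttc
Chga, chr12:102554741-102554940, plus strand: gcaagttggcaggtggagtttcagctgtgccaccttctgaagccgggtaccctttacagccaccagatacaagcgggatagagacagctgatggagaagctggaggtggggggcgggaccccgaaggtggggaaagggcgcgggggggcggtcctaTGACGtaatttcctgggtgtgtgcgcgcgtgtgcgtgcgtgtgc
Scg3, chr9:75684057-75684256, minus strand: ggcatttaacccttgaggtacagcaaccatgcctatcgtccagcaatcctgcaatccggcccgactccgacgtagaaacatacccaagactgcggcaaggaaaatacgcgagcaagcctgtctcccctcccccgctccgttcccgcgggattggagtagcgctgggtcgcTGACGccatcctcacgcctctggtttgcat
Scg5, chr2:113829092-113829291, minus strand: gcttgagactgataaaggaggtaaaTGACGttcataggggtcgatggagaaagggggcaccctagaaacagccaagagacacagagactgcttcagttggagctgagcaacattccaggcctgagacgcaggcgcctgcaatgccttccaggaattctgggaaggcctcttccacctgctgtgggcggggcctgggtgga

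The complete CRE was found in the Scg2 and Chgb windows, beginning 68 and 72 bases before the RefSeq start. This start lies inside the GENCODE gene given above, by 364 bases for Chgb, 94 for Scg2 and 30 for Scg5, so that the Chgb window is within that gene and the Scg2 and Scg5 windows overlap theirs. Over 32851 promoters in RefSeq, 1.47% held it in the same window. Chga and Scg3 had the core without the complete element, beginning 44 and 30 bases before the start and reading TGACGTAA and TGACGCCA. Scg5 had the core 175 bases before. Near matches to the complete element were not searched for. The Scg3 window ends at the start listed with the promoter, which lies 1903 bases from the outermost start of the RefSeq gene. The core was thus in all 5 windows, and 15.7% of all promoters held it. The complete CRE contains 2 overlapping cores, 1 on each strand. A part of the element in the levels over the nuclei was not tested, and Vgf had no promoter to compare. The matches are letters only, and binding was not measured.

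Few granins passed a test of the 24-hour fast. In each nucleus taken alone, 0 of 6 granins passed limma's test between fasted and fed mice, where the shares of all genes that passed were 0.0566% (ARC), 0.131% (VMH), 0.0238% (DMH) and 0.0715% (PVN). Of these 24 tests, 5 had an unadjusted p under 0.05, namely Scg2 in the ARC and DMH and Vgf in the ARC, PVN and VMH. Of all genes, 7.5% in the ARC, 6.48% in the DMH, 5.53% in the PVN and 7.31% in the VMH had such a p. The study reported higher Npy, Agrp and Lepr in the fasted ARC. Of the 4 ARC markers tested here, which include Npy and Agrp, 1 passed there. A gene that did not pass may thus still have changed. Averaged over the 4 nuclei, 1 of 6 passed, against 0.5% of all genes, and this was Scg2, which was higher in fasted mice by 0.14 on the log2(RPKM + 1) scale (SE 0.036, 1.11-fold, adjusted p = 0.081).

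**Figure D5:**
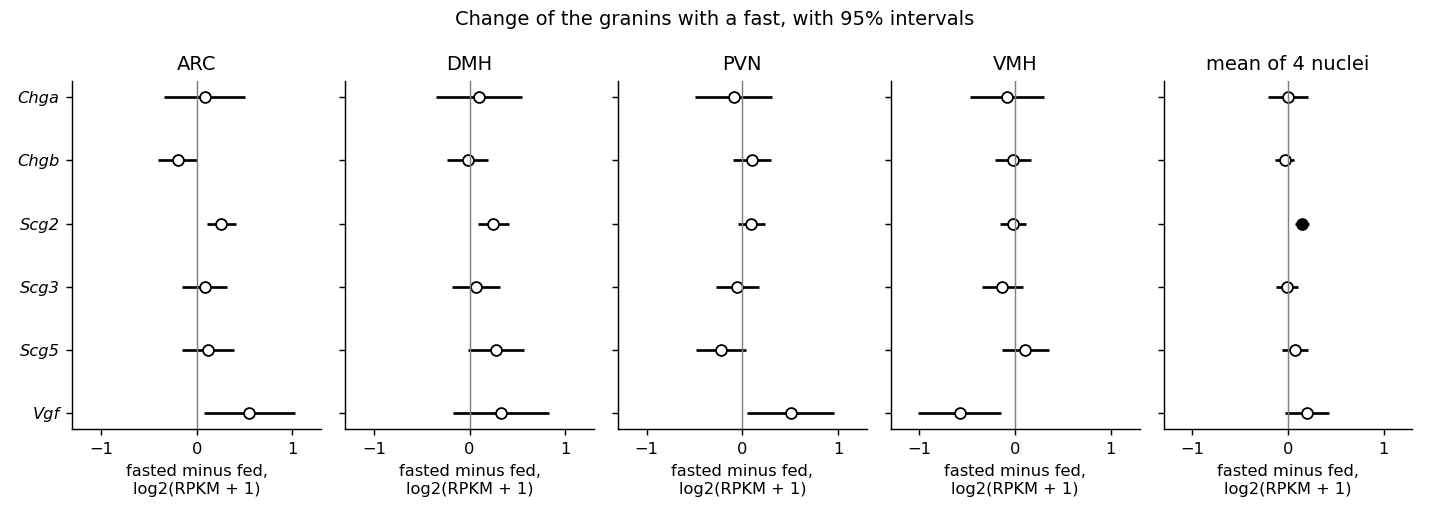
Difference between fasted and fed mice (x axis, log2(RPKM + 1)) for each granin in each nucleus and averaged over the nuclei, as points with 95% intervals, filled where the adjusted p is under 0.1. The average of Scg2, at 0.14, is the only filled point, and Vgf lies to the right of 0 in the ARC, DMH and PVN and to the left in the VMH.

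The Scg2 call was close to the threshold, and it treats nuclei of the same mouse as independent. It was lost in 19 of 42 fits that each left out 1 library (adjusted p from 0.101 to 0.134), while the difference stayed between 0.13 and 0.16. Those libraries were fasted ARC 1, 4 and 5, fed ARC 4 and 5, fasted DMH 1, 2 and 4, fed DMH 1, 4 and 5, fasted PVN 1, 4 and 5, fed PVN 5, fasted VMH 1 and fed VMH 3, 5 and 6. It was also lost with the neuron markers as a covariate (adjusted p = 0.19), under quantile normalisation (adjusted p = 0.19) and with the replicate number as a block (adjusted p = 0.15).

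By nucleus, Scg2 was higher in fasted mice by 0.26 in the ARC (SE 0.074, 95% interval 0.10 to 0.41, adjusted p = 0.30) and by 0.25 in the DMH (SE 0.079, 0.09 to 0.41, adjusted p = 0.45). In the ARC 5 of 5 fasted libraries lay above the fed mean, with 1 of them inside the fed range (two-sided exact permutation p = 0.032). In the DMH all 4 fasted libraries, from 541 to 601 RPKM, lay above all 5 fed libraries, from 443 to 530 (exact permutation p = 0.016, the smallest possible with 4 against 5). Of all genes, 1.15% did not overlap between states in the DMH, and 0.742%, 0.277% and 0.402% did not in the ARC, VMH and PVN, where 0 of 6 granins was free of overlap. In the PVN the Scg2 difference was 0.09 (-0.05 to 0.24), and in the VMH it was -0.02 (-0.16 to 0.12). Within batches the ARC gave 0.27, 0.05 and 0.45 and the DMH 0.19 and 0.30, with the same sign in each. The first ARC value compared 1 fasted with 1 fed library, and the others 2 with 2. Depth differed between the states in the DMH, at 3.91 ± 0.86 M reads in fed and 7.38 ± 4.004 M reads in fasted libraries, and with depth as a covariate the Scg2 difference there was 0.26 (SE 0.085, adjusted p = 0.52).

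Vgf had the widest differences with fasting, and they pointed in different directions. It was 0.55 higher in the fasted ARC (SE 0.233, 95% interval 0.08 to 1.02, adjusted p = 0.65), 0.50 higher in the PVN (SE 0.223, 0.05 to 0.96, adjusted p = 0.87) and 0.32 higher in the DMH (-0.18 to 0.83). In the VMH it was -0.58 (SE 0.213, -1.01 to -0.15, adjusted p = 0.45). All 5 fasted ARC libraries lay above the fed ARC mean of 25.3 RPKM, and all 6 fasted VMH libraries lay below the fed VMH mean of 13.9 RPKM, but the ranges of the states overlapped in both. The two-sided exact permutation p was 0.048 in the ARC, 0.069 in the PVN, 0.127 in the DMH and 0.015 in the VMH, in a family of 24 tests of a granin in a nucleus, so none is taken as a change.

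The test of the difference itself, whether the effect of fasting varied between nuclei, was passed by 0 of 6 granins and by 0.00596% of all genes. Vgf had an unadjusted p of 0.0023 (adjusted p = 0.90) and Scg2 one of 0.028. The VMH value of Vgf rested largely on batch 1. Within batches 1, 2 and 3 it was -1.39, -0.38 and 0.03, and without fed VMH library 2 it was -0.39. ARC values were -0.12 (1 fasted and 1 fed library), 0.69 and 0.74, and PVN values 0.40 (1 fasted and 2 fed), 0.63 and 0.64. The DMH had no pair in batch 1 and gave 0.26 and 0.33.

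None of the other 4 granins had an unadjusted limma p under 0.05 with fasting. For Chga they lay between -0.09 and 0.10 in the 4 nuclei, but the intervals were wide, the broadest running from -0.35 to 0.55 in the DMH. For Chgb the largest was -0.20 in the ARC (95% interval -0.41 to 0.005), where fed ARC library 1 was at 390.3 RPKM. For Scg3 they lay between -0.13 and 0.08. For Scg5 they were 0.28 in the DMH (-0.01 to 0.57) and -0.22 in the PVN (-0.48 to 0.04), where all 5 fasted libraries lay below the fed mean of 167 RPKM.

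Genes that act with the granins gave a similar picture. Of 9 listed genes for the processing of granule cargo, 0 passed between fasted and fed mice in any nucleus or on average, with 3 of 9 at an unadjusted limma p under 0.05 in the average, where 7.14% of all genes had one. Across nuclei, 7 of 9 passed in fed and 6 of 9 in fasted mice, where 12.4% and 11.9% of all genes did. Pcsk2, the convertase that Scg5 chaperones, was at 17.2 ± 0.64 RPKM (SD, n = 5) in fed ARC, 28.2 ± 5.29 (n = 5) in fed DMH, 38.3 ± 3.22 (n = 6) in fed VMH and 39.8 ± 5.55 (n = 6) in fed PVN (adjusted p across nuclei 6.4e-11). Pcsk1n, the granin-like inhibitor of the other main convertase, was at 158 ± 24.4 RPKM in fed ARC and 116 ± 15.4 in fed DMH (adjusted p across nuclei 0.052). Cpe, the carboxypeptidase that trims the cut peptides, was at 745 ± 40.2 RPKM in fed PVN and 539 ± 65.0 in fed ARC (adjusted p = 8.7e-05), and Pam, which amidates them, at 40.4 ± 1.08 in fed VMH and 27.6 ± 3.15 in fed DMH (adjusted p = 5e-05). Their average differences with fasting were 0.17, 0.18, -0.06 and 0.12, with adjusted p of 0.21, 0.25, 0.84 and 0.38.

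Of 15 genes for granule assembly, 7 passed across nuclei in fed mice and 7 in fasted mice, beside 12.4% and 11.9% of all genes. In single nuclei 0 of 15 passed with fasting. On average 1 of 15 did, Ptprn, where 0.5% of all genes passed. Ptprn encodes a protein of the dense-core granule membrane that belongs to the receptor-type tyrosine phosphatase family. With nuclei of the same mouse treated as independent, it was higher in fasted mice by 0.26 on average (SE 0.053, adjusted p = 0.016). It differed by 0.26 in the ARC, 0.28 in the DMH, 0.24 in the PVN and 0.24 in the VMH. Its level in fed mice was 134 ± 15.1 RPKM in the ARC, 99.6 ± 11.98 in the DMH, 169 ± 25.0 in the PVN and 90.4 ± 7.75 in the VMH, so that, as with Scg2, the PVN was highest and the VMH lowest. Of 17 genes for granule exocytosis, 0 passed with fasting in any nucleus or on average, and 3 of 17 had an unadjusted p under 0.05 in the average, beside the same 7.14% of all genes. Across nuclei 12 of 17 passed in fed and 13 of 17 in fasted mice, again beside 12.4% and 11.9% of all genes.

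Among the peptide precursors that granules carry, 23 of 24 tested passed across nuclei in fed mice, where 12.4% of all genes did. Outside the rule for named genes, and chosen after their values were seen, Agrp and Pdyn were the members past the threshold with fasting. Agrp, which encodes a peptide that drives feeding, rose in the ARC by 1.61 (SE 0.331, adjusted p = 0.061), and Pdyn, the prodynorphin gene, fell by 0.58 in the PVN (SE 0.121, adjusted p = 0.057). Of 18 immediate early genes, 0 passed with fasting in a nucleus or on average, with 3 of 18 at an unadjusted p under 0.05 in the average (7.14% of all genes). Across nuclei in fed mice 14 of 18 passed, beside 12.4% of all genes. The summed level of the 18 was 141 to 253 RPKM in fed PVN and 54.4 to 77.8 in fed VMH libraries. Scg2, Scg3 and Vgf likewise had their highest fed mean in the PVN and their lowest in the VMH. With fasting, 13 of the 18 had a positive difference in the ARC, 10 in the DMH, 4 in the PVN and 7 in the VMH. A link between these genes and the granins was not tested.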

How the data were processed

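The authors sequenced single-end reads of 50 bases from amplified total RNA, and the submitters' processing notes name CASAVA 1.7, TopHat2 2.0.11, Cufflinks 2.2.1 and GRCm38. They deposited 1 table of RPKM, whose values hold an added count of 1.46 to 14.5 reads and have their batch means removed. Both points, the batches and the depths were read from recurring low values. Coordinates and symbols came from GENCODE M21. Because the values are RPKM and not counts, limma 3.58.1 (R 4.3.3) was fitted to log2(RPKM + 1) of 33579 genes with at least 1 RPKM in at least 4 libraries, with 8 group means and an intensity trend. The added count gave genes without reads a median value of 1.60 RPKM, so this filter kept many of them. Permutation tests of single genes used scipy 1.17.1. The scripts were tested on simulated data. The members, the gene lists and the rule for named genes (all granins, 4 processing genes, any listed processing, assembly or exocytosis gene past the threshold with fasting, and the genes most correlated, of which 1 is not reported here) were chosen with earlier results of these data known. Alternatives changed the pseudocount, filter, scaling, covariates and blocks, and left out each library. The study's methods call the libraries of a group biological replicates.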

Additional observations from a re-analysis of the deposited data

Results flagged for a closer look

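In 5 of 48 groups of libraries of a granin, 1 library stood apart from the others by Dixon's criterion, where chance gives about 1 in 20. Chgb was at 202 RPKM in fed PVN library 3, with the other 5 between 267 and 297. Scg2 was at 464 RPKM in fed ARC library 4, with the other 4 between 522 and 543, and without it the average difference of Scg2 with fasting was 0.13 (adjusted p = 0.123). Fasted VMH library 1, the shallowest at an estimated 1.33 M reads, stood apart for 2 genes, with Scg2 at 431 RPKM (the others between 340 and 368) and Scg5 at 188 RPKM (the others between 126 and 143). Without it the average Scg2 difference was 0.13 (adjusted p = 0.102), and Scg5 passed between fed VMH and PVN (adjusted p = 0.089). Vgf was at 26.1 RPKM in fed VMH library 2, with the other 5 between 9.71 and 13.8, and without it the fasted minus fed difference in the VMH was -0.39 (adjusted p = 0.67).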

How the results depend on the processing

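Leaving out 1 library at a time left the count of granins that passed at 6 across nuclei in fed mice, at 5 in fasted mice, at 0 for fasting in each nucleus and at 0 for the interaction, moved the pairs of nuclei between 38 and 42 of 72, and moved the average over nuclei between 0 and 1. That average also fell to 0 granins under quantile normalisation, with the neuron marker covariate and with the replicate block. With the neuron marker covariate 5 granins passed across nuclei in fed mice, and pairs of nuclei fell to 19. Over all genes, calls between fed VMH and PVN also fell, from 3305 to 1859. Under the other settings pairs lay between 37 and 43. Replicate numbers gave no sign of pairing. Between nuclei of 1 state, 0 of 31 pairs of fed and 0 of 27 pairs of fasted libraries with the same number had deviations correlated above 0.1. The same held for 0 of 20 pairs of fed and fasted libraries of a nucleus, which cannot share a mouse. Since numbers need not follow mice, these values cannot show that libraries come from different mice. With the replicate block the counts were 0 for fasting in each nucleus, 6 and 5 across nuclei, 39 pairs and 0 for the interaction, and the Scg2 average was 0.14 (adjusted p = 0.15). Without fasted ARC library 3 or 4 or fasted PVN library 1 or 3, Chga no longer passed between the fasted ARC and PVN (adjusted p from 0.101 to 0.172), and its call between the fasted DMH and PVN was lost without fasted DMH library 1, 2, 3 or 4 or fasted PVN library 1, 3 or 4 (0.114 to 0.217). The planned median-ratio scaling gave a factor of 1 to each library. A scaling over genes with reads in every library, added after the data were seen, gave factors from 0.964 to 1.03 and changed none of these 6 counts. Low reads limit Vgf in the VMH most.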
